A study of Mus musculus with 14 samples.

Results

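The miRNAs of the imprinted Dlk1-Dio3 domain on mouse chromosome 12 were followed in the corpus callosum during cuprizone (CPZ) feeding and after its withdrawal. They were chosen by name. A miRNA on the array belonged to the set if its number was 1 of 46 numbers of hairpins in this domain, with any letter or arm suffix and without the star that marks the minor arm in the array's older names. This gave 59 of the 566 mouse miRNAs on the array, and in the RefSeq annotation (GRCm38.p6) all 46 hairpin numbers lay between the genes Dlk1 and Dio3. No measured value entered this rule, but the set was chosen with earlier results of these data known.

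Imprinted genes are read from only the maternal or only the paternal chromosome. In the Dlk1-Dio3 domain the paternal copy expresses the protein-coding genes Dlk1, Rtl1 and Dio3, and the maternal copy expresses long noncoding RNAs (Meg3, an antisense RNA of Rtl1, Rian and Mirg) from which the miRNAs are cut. Transcription of the maternal RNAs starts near Meg3 and is thought to run on through the miRNA hairpins, so that many miRNAs share a precursor. In adult mammals these miRNAs are best known from the brain, mainly from neurons, where miR-134 limits the growth of dendritic spines, and several miRNAs of the Rtl1 antisense RNA pair with the Rtl1 mRNA and lead to its cleavage.

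Single-colour Agilent miRNA arrays had been hybridized with total RNA of male mice, 1 sample per array. The 14 arrays comprised control mice on normal diet (control, n = 4), mice fed CPZ in powdered chow for 4 weeks (4wd, demyelination, n = 4), mice returned to regular diet for 2 further days (2dr, n = 4) and mice returned to it for 2 further weeks (2wr, n = 2). CPZ is a copper chelator that leads to loss of oligodendrocytes and myelin, most of all in the corpus callosum, a white matter tract rich in axons. The labels give no strain for these mice and number the replicates without saying that each was a separate mouse. The methods count the miRNA data by mice per group, in a range that does not include the 2 arrays of 2wr. Here p-values are taken to measure the spread between these samples. Corpus callosum pieces also hold glia, vessels and blood, and for every bulk value fewer cells of a type and less RNA per cell cannot be told apart.

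The image software detected 181 to 287 mouse miRNAs per array, and their summed signal ranged from 45664 on replicate 2 of 2dr to 173924 on replicate 4 of control. Both of the 2 slides used carried every group, and the first principal component (41.3% of the variance) separated the slides. Signals were divided by the 75th percentile of each array, computed from the 170 miRNAs that every array detected, taken to log2 and, where they stood below a common floor of -6.09, set to it. A level given below is this log2 scaled signal, a difference of levels is a log2 fold change, and levels are compared only between arrays for the same miRNA. The 3 miRNAs listed for oligodendrocytes (miR-219, miR-338-3p and miR-338-5p) had a median log2 fold change of -0.86 at 4wd. The 4 tested of 5 listed for myeloid and immune cells had a median of 0.70. Among them miR-146a had 1.33 and miR-142-3p 1.22, but miR-155 0.17 and miR-223 -0.16. No miRNA of either list was called at 4wd. Both lists were chosen with earlier results of these data known, so they are no independent check of the tissue. The only call in any comparison with control was miR-146a, an immune and glial miRNA, at 2dr.

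The mature sequences below are those of the miRNAs on which the results turn, taken from RefSeq (GRCm38.p6, plus strand of chromosome 12). A miRNA finds its targets mainly through the seed, bases 2 to 8 from the 5′ end, which is printed in capitals.
miR-433, chr12:109591781-109591802: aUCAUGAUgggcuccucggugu
miR-127, chr12:109592888-109592909: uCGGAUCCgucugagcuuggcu
miR-341, chr12:109611556-109611576: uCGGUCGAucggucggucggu
miR-370, chr12:109618305-109618326: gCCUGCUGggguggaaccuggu
miR-431, chr12:109590459-109590479: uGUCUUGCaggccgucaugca
miR-136, chr12:109595331-109595352: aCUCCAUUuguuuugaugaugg
miR-379, chr12:109709065-109709085: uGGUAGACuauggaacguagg
miR-494, chr12:109715367-109715388: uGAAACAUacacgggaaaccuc
miR-376a, chr12:109723824-109723844: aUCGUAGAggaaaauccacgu
miR-376b, chr12:109723508-109723528: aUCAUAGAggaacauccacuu
miR-300, chr12:109724363-109724384: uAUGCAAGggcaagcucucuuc
miR-381, chr12:109726870-109726891: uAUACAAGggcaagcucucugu
miR-382, chr12:109733781-109733802: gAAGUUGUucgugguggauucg
miR-541, chr12:109742422-109742446: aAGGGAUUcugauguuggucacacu
miR-409-3p, chr12:109743204-109743225: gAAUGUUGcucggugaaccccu
miR-410, chr12:109743764-109743784: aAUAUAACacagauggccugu
The first 6 lie in the Meg3 to Rian segment, most of them antisense to Rtl1, and the others in the miR-379 to miR-410 segment that ends in Mirg. An array name without an arm was read as the arm that carried this name in older nomenclature, which was not checked against probe sequences.

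A mature sequence was matched for 31 of the 34 domain miRNAs that were tested. miR-376c, miR-485 and miR-487b are named only. The 31 sequences had 31 different seeds, so that sharing a hairpin cluster did not mean sharing a seed. A few pairs were nevertheless close over their whole length. miR-300 and miR-381 differed by G4A, U21G and C22U (base of miR-300, position from the 5′ end, base of miR-381), and miR-376a and miR-376b by G4A, A13C and G20U (base of miR-376a first). In both pairs the substitution at position 4 changed the seed. A probe for 1 of such a pair may also bind the other, so their signals are not fully separate measurements.

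Of the 59 domain miRNAs, 27 were detected on all 14 arrays (45.8%, against 30.0% of all 566 mouse miRNAs), 15 on some arrays and 17 on none (28.8%, against 44.2%). miR-134, the dendritic miRNA, was detected on 2 arrays, both of them control. miR-770-5p, miR-668 and miR-412 were among those detected nowhere, and miR-667 was detected on 7 arrays. Whether these were absent or only too dim for the array cannot be told from a signal not above background. Control arrays detected 36 to 41 domain miRNAs, 4wd arrays 34 to 38, 2dr arrays 27 to 37 and 2wr arrays 34 and 38. The lowest number, 27, was on replicate 2 of 2dr, the array with the lowest summed signal.

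In control, domain miRNAs held 5.80% ± 2.50 (SD, n = 4) of the summed mouse miRNA signal. At 4wd they held 4.75% ± 0.67 (SD, n = 4), at 2dr 4.01% ± 0.95 (SD, n = 4) and at 2wr 4.06% ± 0.38 (SD, n = 2). A share within an array does not depend on scaling between arrays, but it is a share of brightness and not of molecules. Most of the control spread came from miR-494, which was the brightest domain miRNA on replicate 3 of control, where the share was 9.38%. Without miR-494 the control share was 4.12% ± 0.37 (SD, n = 4). At 4wd it was then 4.18% ± 0.55 (SD, n = 4), at 2dr 3.31% ± 0.67 (SD, n = 4) and at 2wr 3.68% ± 0.60 (SD, n = 2). Replicates 2 and 4 of 2dr held 2.66% and 2.81%, below every control and 4wd array, and replicates 1 and 3 held 3.70% and 4.04%, within the control range of 3.59% to 4.37%.

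**Figure D1:**
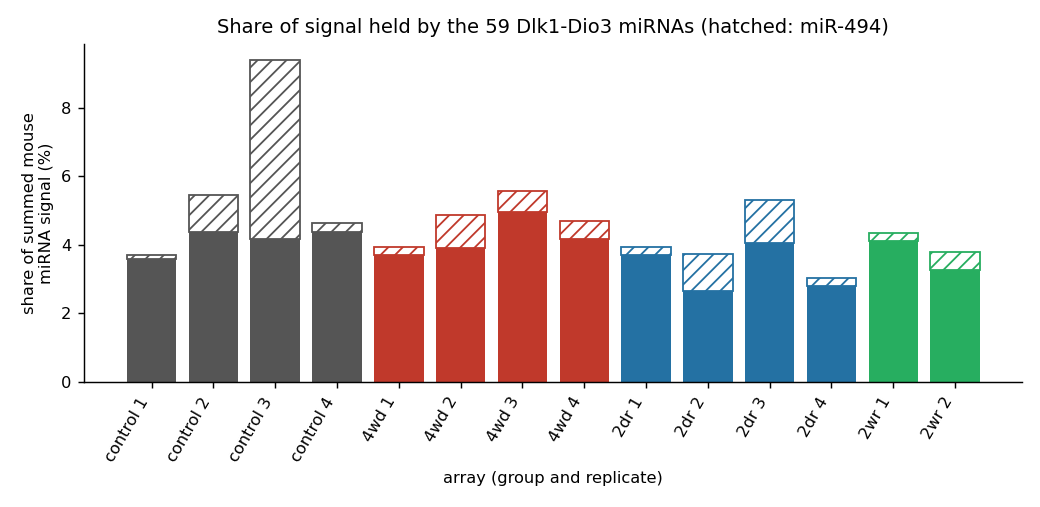
Share of the summed mouse miRNA signal (percent, vertical axis from 0) held by the 59 domain miRNAs on each of the 14 arrays (horizontal axis, by group and replicate), with the part held by miR-494 hatched. The tallest bar, 9.38% on replicate 3 of control, is mostly miR-494, and the solid parts of replicates 2 and 4 of 2dr, 2.66% and 2.81%, are the lowest of all arrays.

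Detection on every array of some group was required for a test, which 35 of the 59 domain miRNAs met. By group, 34 met it through control, 34 through 4wd, 27 through 2dr and 34 through 2wr. miR-539 met it but stood at the floor on all arrays, so 34 were tested among 222 miRNAs in all. Several of the 34 passed through control or 4wd while not detected on an array of 2dr. Medians and the main counts at 2dr are therefore given below also for the 27 detected everywhere.

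After 4 weeks of CPZ the domain miRNAs stood close to control. None of the 34 was called by limma (Benjamini-Hochberg adjusted p under 0.05 with a change of 2-fold or more), as for all tested miRNAs (0.0%). Their median log2 fold change was 0.13, with 22 above and 12 below 0, beside 0.04 over all 222 tested miRNAs. Over those detected on all arrays it was 0.16 for the 27 domain miRNAs and 0.09 for all 170. At an unadjusted p under 0.05, 2 of 34 were higher (5.88%), close to the share among all tested (6.31%), and none was lower. Leaving out 1 array moved this count to 0 without replicate 4 of control, beside 3.15% of all tested. It was 4 without replicate 2 or 3 of control, beside 4.95% and 8.56%. It was 1 without replicate 1 of control, beside 6.76%, and without replicate 1, 2 or 3 of 4wd, beside 6.31%, 3.6% and 4.5%. Normexp background correction lifted the median of all tested at 4wd to 0.86 and that of the domain to 0.90. With it 14 of 35 domain miRNAs were called, beside 87 of all 225 tested. For 5 domain miRNAs, namely miR-323-3p, miR-433, miR-434-3p, miR-485 and miR-543, every 4wd array lay above every control array (14.7%, beside 5.86% of all tested).

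The 2 with an unadjusted p under 0.05 were miR-433, cut from the Rtl1 antisense RNA, and miR-485. miR-433 stood at -2.80, -2.36, -2.36 and -2.93 on the control arrays, at -2.22, -2.17, -1.72 and -1.86 at 4wd, at -2.65, -2.75, -2.83 and -3.20 at 2dr and at -2.35 and -3.11 at 2wr. All 4wd arrays were thus above all control and all 2dr arrays, and the 2 arrays of 2wr lay on either side of the control mean. Its log2 fold change at 4wd was 0.62 (SE 0.23, adjusted p = 0.347 from limma, exact two-sided permutation p = 0.0286, the smallest that 4 against 4 arrays allow). Within slide 1 the difference was 0.39 and within slide 2 0.86.

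miR-485 stood at -4.49, -3.98, -4.23 and -4.53 in control, at -3.51, -3.59, -3.76 and -3.91 at 4wd, at -4.21, -4.68, -4.66 and -4.93 at 2dr and at -3.88 and -4.94 at 2wr. As for miR-433, the 4wd arrays did not overlap the control or the 2dr arrays. The log2 fold change at 4wd was 0.61 (SE 0.25, adjusted p = 0.379 from limma, exact permutation p = 0.0286), 0.68 within slide 1 and 0.54 within slide 2. With no scaling between arrays both differences were negative, -0.35 for miR-433 and -0.36 for miR-485, and all tested miRNAs then had a median of -0.88.

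The lowest log2 fold changes at 4wd belonged to miR-376c, with a log2 fold change of -0.45 (SE 0.34, adjusted p = 0.751 from limma), and to miR-136, with -0.31 (SE 0.50, adjusted p = 0.932 from limma). miR-376c stood at -4.36, -5.26, -5.64 and -4.64 in control and at -5.34, -5.13, -5.13 and -6.09 at 4wd, where replicate 4 was at the floor. The groups overlapped for both miRNAs.

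**Figure D2:**
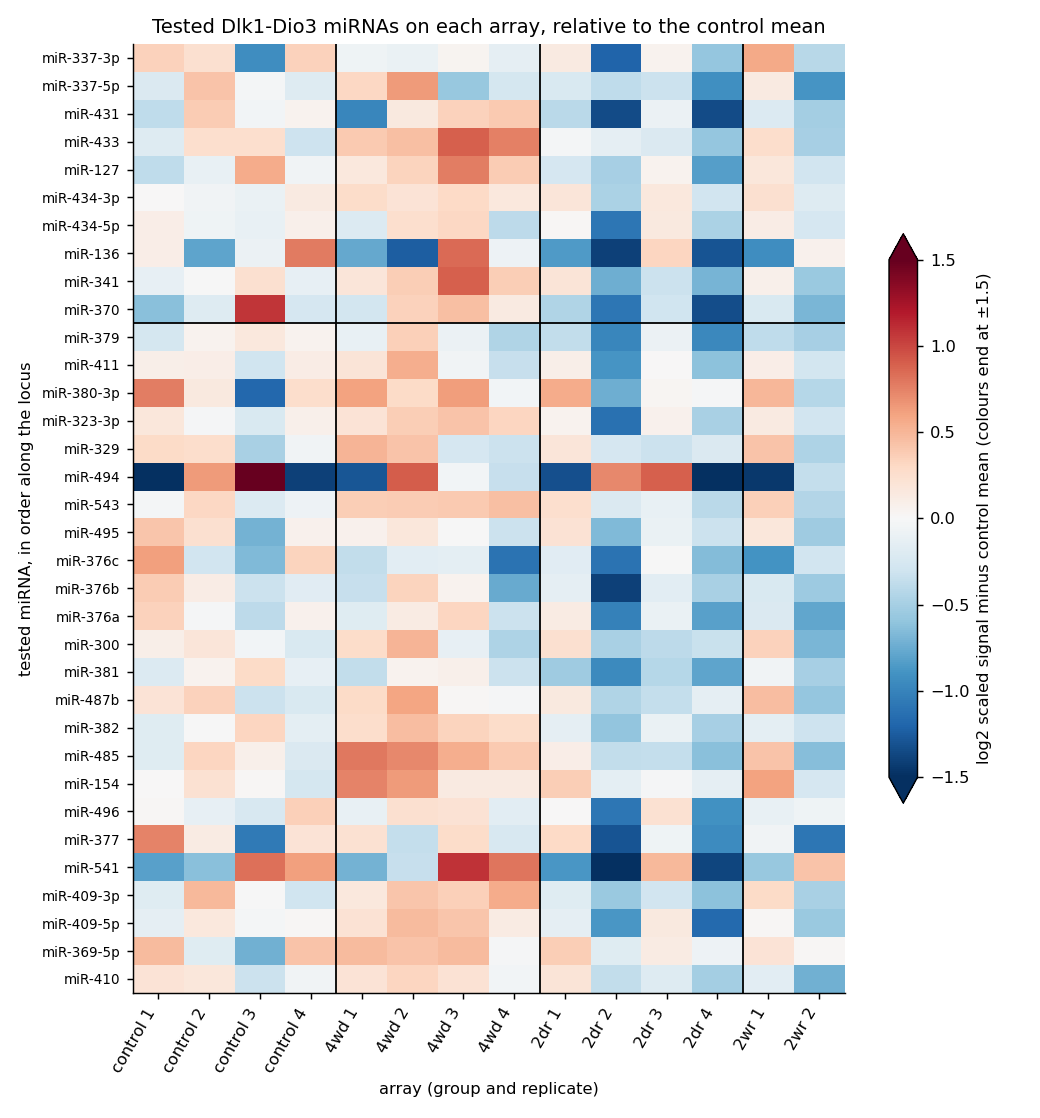
Log2 scaled signal of the 34 tested domain miRNAs (rows, in their order along chromosome 12) on each of the 14 arrays (columns), minus the control mean of that miRNA; red is above and blue below that mean, and lines mark the groups and the boundary between the 2 segments of the locus. Replicates 2 and 4 of 2dr and replicate 2 of 2wr are blue over most rows, and the row of miR-494 has the strongest colours within control.

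After 2 days of regular diet the domain miRNAs stood lower than in control on 2 of the 4 arrays. None of the 34 was called against control, where 1 of all tested was (0.45%). The median log2 fold change was -0.38 with 32 of 34 below 0, beside a median of -0.24 and 71.2% below 0 over all tested miRNAs. The size of this median and the share below 0 depended on the scaling, and the sign of the median turned with normexp background correction. With the 75th percentile taken over all mouse miRNAs the median was -0.10 with 23 of 34 below 0, beside 47.7% of all tested. With quantile normalization it was -0.12 with 25 of 34, beside 52.7%. The authors' processed values gave -0.12 with 24 of 35, beside 48.9%. With no scaling the median was -0.73 with 35 of 35, beside 89.7%. With normexp the median turned to 0.09 with 13 of 35 below 0, beside 26.2%. Over miRNAs detected on all arrays the medians were -0.35 for the 27 and -0.15 for all 170. At an unadjusted p under 0.05, 4 of 34 were lower (11.8%, beside 6.76% of all tested), namely miR-370, miR-379, miR-381 and miR-431. Of these miR-431 was detected on only 3 arrays of 2dr. Of the 27 detected everywhere 3 were lower (11.1%, beside 6.47% of all 170). The count of 4 became 0 with the 75th percentile over all miRNAs, the authors' values or normexp, beside 1.35%, 2.22% and 0.0% of all tested. It was 1 with quantile normalization or the methods' test, beside 2.73% and 1.8%. With no scaling or with spot means it was 2, beside 4.04% and 5.36%. Every 2dr array lay below every control array for 2 of 34 (5.88%, beside 2.25%), miR-381 and miR-337-5p.

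miR-381 stood at -2.84, -2.57, -2.34 and -2.75 in control, at -2.99, -2.57, -2.56 and -2.95 at 4wd, at -3.16, -3.58, -3.05 and -3.42 at 2dr and at -2.67 and -3.12 at 2wr. The 2dr arrays were below all control and all 4wd arrays. The log2 fold change against control was -0.67 (SE 0.20, adjusted p = 0.18 from limma, exact permutation p = 0.0286), -0.68 within slide 1 and -0.50 within slide 2. Of its 2 probes, 1 stood at the floor on 10 of the 14 arrays and had -0.22, and the other had -0.59. miR-300, which differs from miR-381 at 3 bases, had a log2 fold change of -0.24 (SE 0.27, adjusted p = 0.628 from limma), and the difference between the pair was not tested.

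miR-379, the first hairpin of the larger cluster, stood at -2.35, -2.03, -1.92 and -2.04 in control and at -2.45, -3.06, -2.18 and -3.06 at 2dr, a log2 fold change of -0.60 (SE 0.24, adjusted p = 0.374 from limma). Replicate 3 of 2dr was within the control range and replicates 2 and 4 were far below it. miR-370, cut from Rian, stood at -3.67, -3.24, -1.97 and -3.29 in control and at -3.49, -4.13, -3.34 and -4.37 at 2dr, a log2 fold change of -0.79 (SE 0.35, adjusted p = 0.42 from limma), where replicate 3 of control stood above the other controls.

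miR-431 of the Rtl1 antisense RNA stood at -5.12, -4.36, -4.79 and -4.69 in control and at -5.14, -6.09, -4.83 and -6.09 at 2dr. Its replicates 2 and 4 of 2dr were at the floor, so the log2 fold change of -0.80 (SE 0.36, adjusted p = 0.42 from limma) depends on where the floor is set. Of the 2 probes for miR-431, 1 stood at the floor on all 14 arrays. The largest negative values of all at 2dr, -0.83 for miR-541 (SE 0.55, adjusted p = 0.472 from limma) and -0.81 for miR-136 (SE 0.50, adjusted p = 0.472 from limma), belonged to miRNAs that differed between the slides in every group. miR-369-5p and miR-154, both from the Mirg end of the locus, had the only 2 values above 0, 0.06 for miR-369-5p (SE 0.26, adjusted p = 0.909 from limma) and 0.02 for miR-154 (SE 0.23, adjusted p = 0.969 from limma).

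The difference between the 2 days of regular diet and the end of CPZ feeding held the most domain miRNAs at an unadjusted p under 0.05. All 34 tested domain miRNAs were lower at 2dr than at 4wd, with a median log2 fold change of -0.48 beside -0.27 over all tested miRNAs, of which 66.7% were below 0, and -0.16 over the 188 tested miRNAs that are no members. The full count of 34 belonged to this scaling. It was 28 of 34 with the 75th percentile over all mouse miRNAs, beside 46.4% of all tested below 0. With quantile normalization it was 29 of 34, beside 52.7%, and with the authors' values 29 of 35, beside 45.8%. With no scaling it was 10 of 35, beside 19.3%, and the domain's median was above 0. None was called, as for all tested (0.0%), and the smallest adjusted p from limma among them was 0.158. At an unadjusted p under 0.05, 13 of 34 were lower (38.2%), beside 15.3% of all tested and 11.2% of the 188 others. Several of the 34 were not detected on an array of 2dr. Of the 27 detected everywhere 11 were lower (40.7%, beside 14.7% of all 170). The count of 13 became 1 with the 75th percentile taken over all mouse miRNAs, beside 2.7% of all tested. It became 0 with no scaling or with the authors' processed values, beside 0.0% and 1.78%. Every 2dr array lay below every 4wd array for 9 of 34 (26.5%, beside 7.66% of all tested), namely miR-127, miR-323-3p, miR-370, miR-381, miR-382, miR-409-3p, miR-433, miR-485 and miR-543. Of these miR-323-3p was detected on only 3 arrays of 2dr. Of the 27 detected everywhere 8 lay so (29.6%, beside 9.41% of all 170). The medians over miRNAs detected on all arrays were -0.48 for the 27 and -0.27 for all 170.

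The 5 with the smallest p were miR-433, miR-485, miR-382, miR-409-3p and miR-341. For miR-433, whose values are given above, the log2 fold change was -0.87 (SE 0.23, adjusted p = 0.158 from limma, exact permutation p = 0.0286), -0.67 within slide 1 and -1.04 within slide 2. For miR-485 it was -0.92 (SE 0.25, adjusted p = 0.158 from limma, exact permutation p = 0.0286), -1.05 within slide 1 and -0.82 within slide 2. Both thus stood lower at 2dr on each slide. For each, 1 of its 2 probes stood at the floor on 7 of the 14 arrays.

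miR-382 stood at -1.41, -1.21, -1.34 and -1.40 at 4wd and at -1.81, -2.26, -1.77 and -2.18 at 2dr, with control at -1.85, -1.68, -1.35 and -1.82 and 2wr at -1.82 and -1.98. Its 4wd arrays lay within 0.20 of each other and above all arrays of 2dr and 2wr, while control replicate 3 reached the 4wd range. The log2 fold change of 2dr against 4wd was -0.67 (SE 0.18, adjusted p = 0.158 from limma, exact permutation p = 0.0286).

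miR-409-3p stood at -3.63, -3.38, -3.43 and -3.23 at 4wd and at -3.97, -4.35, -4.08 and -4.41 at 2dr, without overlap. The log2 fold change was -0.79 (SE 0.22, adjusted p = 0.158 from limma, exact permutation p = 0.0286), -0.74 within slide 1 and -0.75 within slide 2. The control arrays, at -3.97, -3.31, -3.80 and -4.09, overlapped both groups, and 2wr was at -3.50 and -4.28.

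miR-341, cut from Rian, stood at -3.59, -3.41, -2.88 and -3.41 at 4wd and at -3.58, -4.50, -4.10 and -4.47 at 2dr, where replicate 1 of 2dr reached the 4wd range. The log2 fold change was -0.84 (SE 0.24, adjusted p = 0.158 from limma, exact permutation p = 0.0571). miR-127, antisense to Rtl1, stood at 1.02, 1.20, 1.63 and 1.24 at 4wd and at 0.60, 0.36, 0.92 and 0.03 at 2dr, without overlap, a log2 fold change of -0.79 (SE 0.25, adjusted p = 0.167 from limma, exact permutation p = 0.0286).

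**Figure D3:**
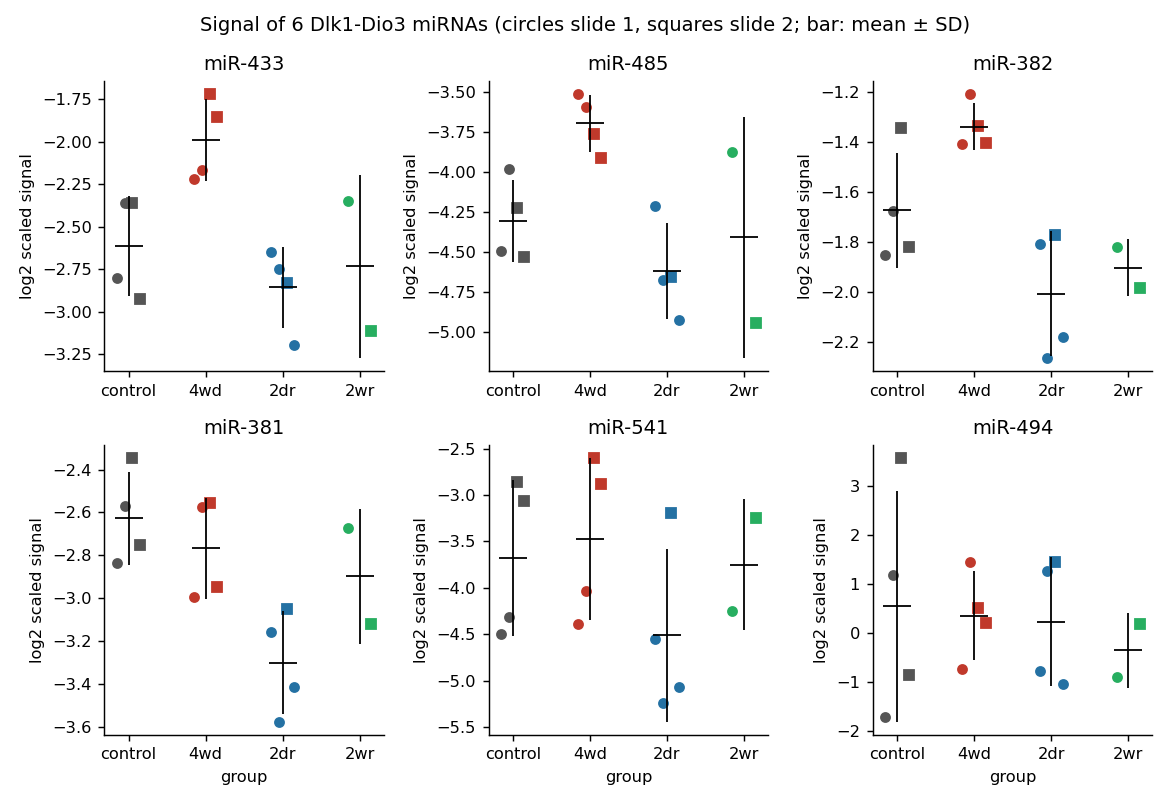
Log2 scaled signal (vertical axes, each panel on its own scale) of 6 domain miRNAs on the arrays of the 4 groups (horizontal axes); circles are arrays of slide 1, squares of slide 2, and the bars give the mean and SD of each group. miR-433, miR-485 and miR-382 stand higher on all 4wd arrays than on all 2dr arrays, miR-381 is lowest at 2dr, miR-541 follows the slide, and miR-494 spreads most within control, from -1.71 to 3.57.

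Both segments of the locus had medians of the same sign, which was also the sign of the median over all tested miRNAs. For 2dr against 4wd the 10 tested miRNAs of the Meg3 to Rian segment had a median log2 fold change of -0.63, from -0.96 to -0.33, and 5 of them had an unadjusted p under 0.05. The 24 of the miR-379 to miR-410 segment had a median of -0.44, from -1.04 to -0.04, and 8 of them did. Over all tested miRNAs the median was -0.27, and 15.3% were lower at an unadjusted p under 0.05. Against control at 2dr the segments had medians of -0.39 and -0.34, beside -0.24 over all tested. At 4wd they had 0.10 and 0.13, beside 0.04. The difference between the segments was not tested.

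**Figure D4:**
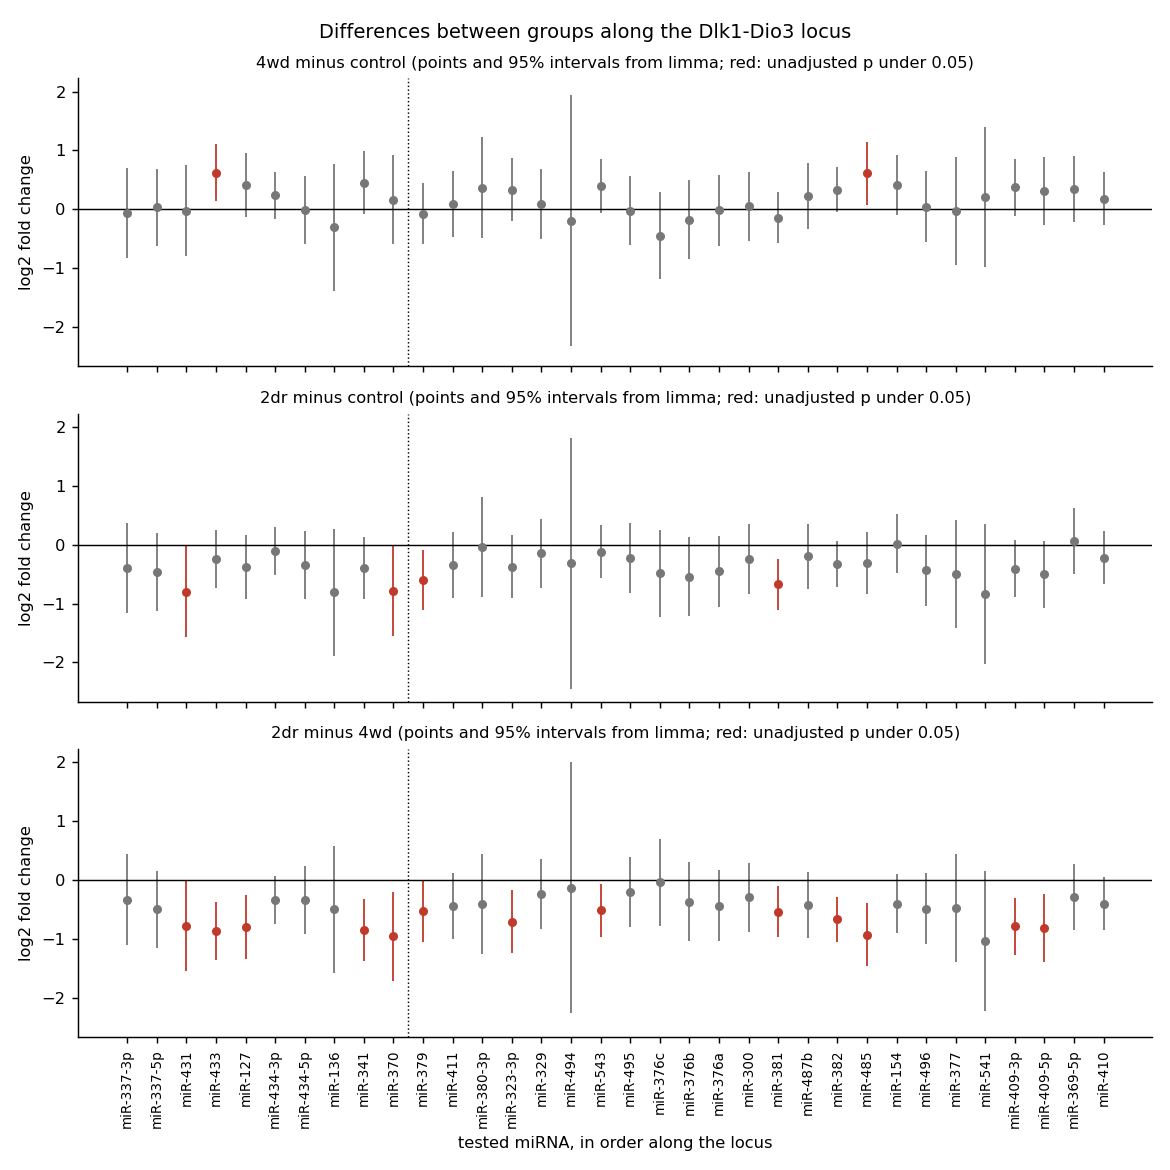
Log2 fold change from limma (points) with its 95% interval (lines) of the 34 tested domain miRNAs in their order along the locus, for 4wd minus control, 2dr minus control and 2dr minus 4wd; the dotted line separates the Meg3 to Rian segment from the miR-379 to miR-410 segment, and red marks an unadjusted p under 0.05. All 34 points lie below 0 in the lowest panel, 32 in the middle panel and 12 in the upper panel, and miR-494 has the widest intervals.

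Arms of 1 hairpin and close sequences are not independent measurements, and some pairs had like values while others did not. miR-409-3p and miR-409-5p had log2 fold changes of -0.79 and -0.81 for 2dr against 4wd, -0.41 and -0.51 against control. miR-434-3p and miR-434-5p had -0.34 and -0.34 against 4wd, and 0.23 and -0.01 for 4wd against control. miR-337-3p and miR-337-5p had -0.33 and -0.50 against 4wd, and 0.08 and -0.37 for 2wr against control. miR-376a and miR-376b had -0.43 and -0.37 against 4wd, and miR-300 and miR-381 -0.29 and -0.53. miR-495 and miR-543, which differ by A6U, A7U, A9G and U10C (base of miR-495 first), had -0.20 and -0.51 against 4wd, and -0.02 and 0.40 for 4wd against control. No difference within a pair was tested.

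On the single arrays, miR-409-5p stood at -4.03, -3.73, -3.92 and -3.87 in control, -3.67, -3.41, -3.48 and -3.77 at 4wd, -4.03, -4.76, -3.74 and -5.05 at 2dr and -3.88 and -4.45 at 2wr. miR-434-3p stood at 0.49, 0.44, 0.39 and 0.63 in control, 0.76, 0.69, 0.78 and 0.65 at 4wd, 0.67, 0.01, 0.64 and 0.20 at 2dr and 0.72 and 0.29 at 2wr. Its partner miR-434-5p stood at -2.90, -3.06, -3.11 and -2.92 in control, -3.20, -2.75, -2.69 and -3.39 at 4wd, -2.98, -4.08, -2.85 and -3.47 at 2dr and -2.89 and -3.25 at 2wr. Of these 3 only miR-434-3p had its 4wd arrays above all controls. miR-337-3p stood at -4.16, -4.26, -5.44 and -4.16 in control, -4.58, -4.60, -4.46 and -4.64 at 4wd, -4.37, -5.71, -4.45 and -5.08 at 2dr and -3.94 and -4.92 at 2wr. miR-337-5p stood at -3.28, -2.63, -3.09 and -3.26 in control, -2.75, -2.42, -3.63 and -3.33 at 4wd, -3.29, -3.45, -3.39 and -3.99 at 2dr and -2.93 and -3.94 at 2wr, with all 2dr arrays below all controls.

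The star arms of these hairpins, which the rule leaves out, gave a further look at the same precursors. Of 13 on the array, 8 were tested, with a median log2 fold change of 0.06 at 4wd and -0.28 at 2dr against control, where 8 of 8 lay below 0. All tested miRNAs had medians of 0.04 and -0.24, with 71.2% below 0 at 2dr. For 2dr against 4wd the star arms had a median of -0.35 with 7 of 8 below 0, beside -0.27 and 66.7% over all tested. At 2dr against control only miR-411* had an unadjusted p under 0.05, with a log2 fold change of -0.73 (SE 0.22, adjusted p = 0.180 from limma), and for 2dr against 4wd only miR-300* did, with -0.70 (SE 0.28, adjusted p = 0.200 from limma). Of 9 miRNAs listed from other imprinted genes, 2 were tested. miR-335-5p, from an intron of Mest, had a log2 fold change of -0.36 for 2dr against 4wd (SE 0.30, adjusted p = 0.510 from limma), and miR-296-5p, from the Gnas locus, -0.58 (SE 0.30, adjusted p = 0.315 from limma).

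After 2 weeks of regular diet only 2 arrays were measured, so that an exact permutation p against 4 arrays cannot go below 0.133. None of the 34 was called against control, as for all tested (0.0%), with a median log2 fold change of -0.14 beside -0.07, and 29 of 34 below 0 beside 60.8% of all tested. The direction turned with the scaling. With the 75th percentile over all mouse miRNAs the median was 0.03 with 16 of 34 below 0, beside 39.6% of all tested. It was 0.02 with 17 of 35 with the authors' values, beside 40.9%, and 0.15 with 8 of 35 with normexp, beside 19.6%. The 2 arrays differed. Replicate 1 stood at a median of 0.11 above the control mean over the 27 domain miRNAs detected on all arrays, and replicate 2 at -0.50. Against 4wd none of the 34 was called (0.0% of all tested), and 5 had an unadjusted p under 0.05 and were lower (14.7%, beside 4.95% of all tested). These were miR-341, miR-382, miR-410, miR-433 and miR-485, with log2 fold changes from -0.74 for miR-433 to -0.56 for miR-382 and an adjusted p = 0.677 from limma for each. Without replicate 2 of 2wr the number was 0 (0.45% of all tested), without replicate 1 it was 8 (7.66%), and without replicate 1, 2 or 3 of 4wd it was 3. Of all tested, the fits without these 4wd arrays gave 5.41%, 3.6% and 3.6%. The number of domain miRNAs was also 0 with quantile normalization, the authors' values, no scaling or the 75th percentile over all mouse miRNAs. The shares of all tested were then 1.36%, 0.0%, 0.0% and 0.901%. With the methods' test the number was 1, beside 0.901%, and with normexp 3, beside 5.78%.

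miR-410, the last hairpin of the cluster, stood at -0.96, -0.99, -1.48 and -1.21 in control, at -0.96, -0.83, -0.95 and -1.20 at 4wd, at -0.97, -1.53, -1.36 and -1.67 at 2dr and at -1.32 and -1.88 at 2wr. Both arrays of 2wr were below all 4wd arrays, with a log2 fold change of -0.62 (SE 0.26, adjusted p = 0.677 from limma, exact permutation p = 0.133). Against control the lowest value at 2wr was that of miR-494, with -0.90 (SE 1.21, adjusted p = 0.996 from limma), and the next that of miR-376c, with -0.59 (SE 0.42, adjusted p = 0.996 from limma). The highest values against control at 2wr were 0.17 for miR-154 (SE 0.29, adjusted p = 0.996 from limma) and 0.11 for miR-369-5p (SE 0.32, adjusted p = 0.996 from limma). miR-154 stood at -1.40, -1.18, -1.39 and -1.67 in control, at -1.04, -1.56, -1.43 and -1.54 at 2dr and at -0.81 and -1.66 at 2wr. miR-369-5p stood at -2.75, -3.39, -3.93 and -2.79 in control, at -2.84, -3.40, -3.09 and -3.29 at 2dr and at -3.01 and -3.20 at 2wr, and for both the groups overlapped. Between 2wr and 2dr no domain miRNA was called (0.0% of all tested), and the median log2 fold change was 0.15 beside 0.08 over all tested. On slide 1 2wr lay above 2dr for 32 of 34 domain miRNAs, and on slide 2 below it for 34 of 34, each slide with 1 array of 2wr. Such counts per slide were not made for all tested miRNAs. Relative to the control mean, the 170 miRNAs detected everywhere had a median of 0.08 on the 2wr array of slide 1. On the 2dr arrays of slide 1 they had 0.04, -0.32 and -0.22. On slide 2 they had -0.15 at 2wr and -0.06 at 2dr.

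Low values at 2dr and 2wr were concentrated on 3 arrays. Relative to the control mean, the median over the 27 domain miRNAs detected on all arrays was 0.09, -0.56, -0.10 and -0.62 on the 4 arrays of 2dr and 0.11 and -0.50 on the 2 of 2wr. On replicates 2 and 4 of 2dr, 21 and 20 of the 27 stood below all 4 control arrays, beside 40% and 35.9% of all 170 miRNAs detected everywhere, and on replicate 2 of 2wr 19 of 27 did, beside 24.7%. On replicates 1 and 3 of 2dr 5 and 6 of 27 did, beside 20% on each. The 4wd arrays had medians of 0.20, 0.38, 0.29 and -0.04, and 11, 16, 12 and 6 of the 27 stood above all controls, beside 27.1%, 37.1%, 25.9% and 20.6% of the 170.

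Leaving out replicate 2 or replicate 4 of 2dr changed the number of domain miRNAs with an unadjusted p under 0.05 and lower at 2dr than in control from 4 to 1 in each case, beside 3.15% and 4.5% of all tested in the same fits. Without replicate 1 or 3 of 2dr it was 7 and 8, beside 17 and 31 of all 222 tested. It was 1 without replicate 2 of control, beside 5.41% of all tested. Without replicate 4 of control or replicate 2 of 4wd it was 2, beside 4.05% and 5.41%. Against 4wd the number was 13 with all arrays and 9 without replicate 2 or replicate 4 of 2dr, beside 11.7% and 9.01% of all tested. It was 16 without replicate 1 and 15 without replicate 3 of 2dr, beside 40 and 39 of all 222 tested. Within slide 1, which held replicates 1, 2 and 4 of 2dr, the median log2 fold change of the 34 was -0.55 against control and -0.61 against 4wd, with 33 and 34 of 34 below 0. Within slide 2, which held replicate 3 alone, it was 0.01 and -0.11, with 17 and 24 of 34 below 0. These values per slide were not computed for all tested miRNAs. Relative to the control mean, the 170 miRNAs detected everywhere had medians of 0.04, -0.32 and -0.22 on the 2dr arrays of slide 1. On the 2dr array of slide 2 they had -0.06.

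Neuron-enriched miRNAs moved with the domain on most of these arrays. The 10 listed (such as miR-124, miR-137 and miR-138, all detected on all arrays) had medians relative to the control mean of 0.04, -0.65, -0.34 and -0.59 on the arrays of 2dr, of 0.14 and -0.33 on those of 2wr, and of 0.28, 0.44, 0.07 and -0.60 on those of 4wd. Replicate 4 of 4wd was thus low in the neuron list, with the domain at -0.04. All 170 miRNAs detected everywhere had medians of 0.04, -0.32, -0.06 and -0.22 on the arrays of 2dr. On those of 2wr they had 0.08 and -0.15, and on those of 4wd 0.12, 0.24, 0.07 and -0.03. For 2dr against 4wd the neuron list had a median log2 fold change of -0.45 with 9 of 10 below 0. Against control it had -0.25 with 10 of 10 below 0. Over all tested miRNAs the medians were -0.27 and -0.24, with 66.7% and 71.2% below 0. The 4wd and 2dr values of the oligodendrocyte list gave a difference of 0.43, of the myeloid list of 0.80 (4 of 5 listed tested) and of the red blood cell list of -0.10 (2 of 3 tested). Replicate 2 of 2dr was the dimmest array, whereas replicate 4 of 2dr and replicate 2 of 2wr, with summed signals of 132492 and 129989, were among the brighter ones. The part of neuronal RNA, tissue sampling and array brightness in the shift of the domain was not tested.

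**Figure D5:**
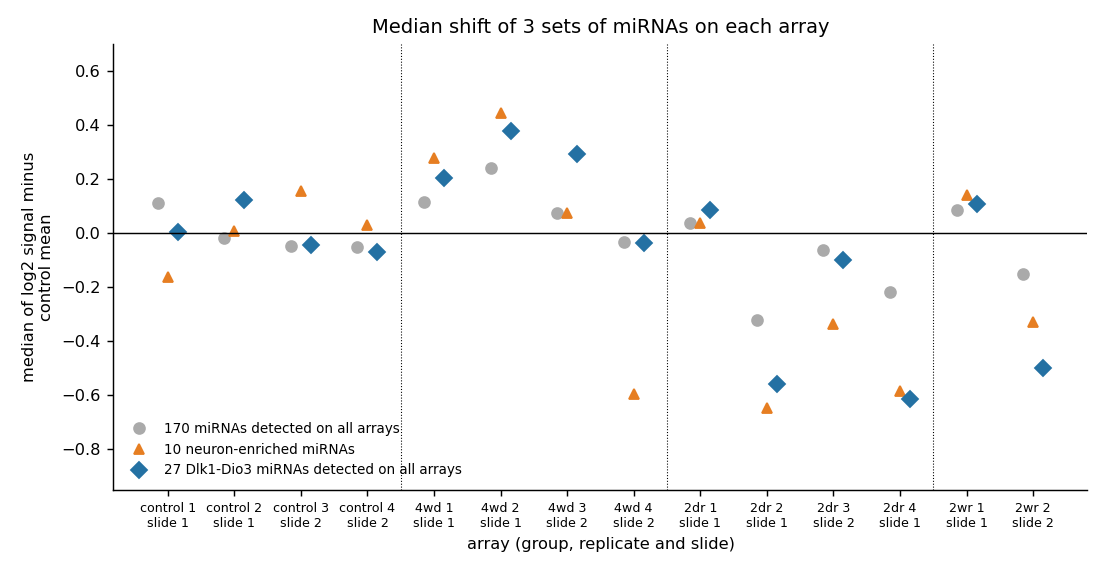
Median difference from the control mean (log2, vertical axis) on each array (horizontal axis, with its slide) for the 27 domain miRNAs detected on all arrays (diamonds), 10 neuron-enriched miRNAs (triangles) and all 170 miRNAs detected on all arrays (circles). The diamonds reach -0.56 and -0.62 on replicates 2 and 4 of 2dr and -0.50 on replicate 2 of 2wr, below the circles of the same arrays.

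The size of the shift depended on the scale, and its order against the whole array less so. With the 75th percentile taken over all mouse miRNAs, the median of the domain for 2dr against 4wd was -0.16 and that of all tested 0.03, with no scaling they were 0.11 and 0.28, and with normexp background correction -0.82 and -0.76. Over the 14 other settings tried, the domain's median minus that of all tested lay between -0.30 and -0.06 for 2dr against 4wd and between -0.20 and -0.07 for 2dr against control, and it was below 0 in each. With 34 of 222 tested miRNAs in the domain, the 2 medians are not independent, and this difference has no test.

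Within groups the domain miRNAs varied together from array to array. After the group means were taken off, the 27 domain miRNAs detected on all arrays had a median pairwise Pearson correlation over the 14 arrays of 0.45, with 87.5% of 351 pairs above 0. The 143 other miRNAs detected on all arrays had a median of 0.03, with 52.0% of 10153 pairs above 0. With the means taken off within each slide and group, the medians were 0.58 and 0.07. The points of each correlation share the array, its slide and its scaling, and the values are a description.

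miR-494 was the exception in the domain. Its levels were -1.71, 1.18, 3.57 and -0.86 on the control arrays, -0.74, 1.45, 0.50 and 0.19 at 4wd, -0.77, 1.27, 1.44 and -1.04 at 2dr and -0.91 and 0.18 at 2wr, a range of 5.28 on the log2 scale. Replicate 3 of control stood highest, and no group was separate from another. Its SD within groups was 1.57, the second highest of all 222 tested miRNAs, against a median of 0.37 over the 34 and of 0.41 over all tested. Both of its probes spanned a similar range, 5.10 and 5.70. Without miR-494 the median pairwise correlation of the domain was 0.48.

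miR-136 and miR-541 were higher on slide 2 than on slide 1 in all 4 groups. miR-136 stood at -1.92, -2.81, -2.11 and -1.24 in control and at -2.87, -3.42, -1.70 and -3.31 at 2dr, and its mean difference between slides was 1.15. miR-541 stood at -4.50, -4.31, -2.86 and -3.06 in control and at -4.55, -5.24, -3.19 and -5.06 at 2dr, and its mean difference was 1.42. Replicate 3 of 2dr, the only one of that group on slide 2, was the highest of its group for both. Of the 34, these 2 were higher and 5 others lower on slide 2 in all 4 groups, and of all 222 tested 48 were higher and 46 lower. With slide as a block, 17 of the 34 had an unadjusted p under 0.05 and were lower at 2dr than at 4wd, beside 20.7% of all 222 in the same fit, the smallest adjusted p from limma being 0.0715. Against control 4 of the 34 were lower, beside 9.46%.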

How the data were processed

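The members and all lists were chosen with earlier results of these data known. The deposited scanner files hold spot and total gene signal intensity on a linear scale, background-subtracted by the authors' software (Agilent Feature Extraction 10.5.1.1 per the file headers and the submitters' processing notes, with a later version in the methods), with no normalization between arrays. A processed table that the authors also deposited is on a log2 scale, with column medians from -5.73 to -3.05. Compared with the scanner files, it equalled log2 total signal less a constant per array to within 0.01, on 13 arrays for at least 559 of 560 miRNAs and on replicate 1 of 4wd for 368, and it served as an alternative only.

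Total signal was divided by the array's 75th percentile over the 170 miRNAs detected on all 14 arrays. The floor was the median over arrays of the 5th percentile of scaled signals of detected miRNAs (0.0147), since the lowest detected signals were negative on some arrays. Of 225 of the 566 mouse miRNAs that passed the detection filter, 3 stood at the floor on every array and were left out, so 222 were tested. The 10 viral miRNAs and control spots were not used. All 14 arrays entered 1 limma fit (version 3.58.1, R 4.3.3), with Benjamini-Hochberg adjustment over the 222, and exact two-sided permutation tests of mean differences used scipy 1.17.1. The methods give the filter, the 2-fold minimum and the 75th percentile, the last without limiting it to miRNAs detected on all arrays, so the percentile over all mouse miRNAs, tried as an alternative, is nearer to their wording. In simulated data with 40 changed miRNAs among 222, the fit for 4wd against control recovered 91.25% of 4-fold and 39% of 2-fold changes. A call needed an estimate of 2-fold or more, which true 2-fold changes often miss at any number of arrays. The simulated noise was independent between miRNAs, without a slide difference, a floor or shared variation. These shares are therefore no measure of what the real arrays recover. The number of arrays also limits the precision.

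Per-array values are given for members with an unadjusted limma p under 0.05 against control, for the 2 highest and 2 lowest log2 fold changes in each comparison with control, and for both arms of a hairpin. The 5 smallest p against 4wd and other members named were chosen after their values were seen. Arrays of different groups carry the same replicate numbers. Their deviations from group means correlated above 0.1 in 13 of 18 same-numbered pairs (lowest r -0.69), and 13 of the 18 shared a slide, so numbers were not taken as pairs. The closest arrays differed by a median of 0.19 on the log2 scale, so none was a copy. The files lack the mean signal, so normexp (offset 50) used the spots' median signal.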

Additional observations from a re-analysis of the deposited data

Results flagged for a closer look

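In 1 of the 51 groups of 4 arrays examined over 16 of the named members and the domain's array values, 1 array stood far from the others. miR-369-5p on replicate 4 of 4wd was at -3.23, while the other 4wd arrays stood between -2.79 and -2.74, a gap of 0.89 of the whole range of the group. Chance gives such a gap in about 1 of 20 groups.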

How the results depend on the processing

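For 26 of the differences named above, 345 of 357 values under other settings and 356 of 364 with an array left out had the sign reported. Against control these were the 2 highest, the 2 lowest and those at an unadjusted p under 0.05. For 2dr and 2wr against 4wd they were the 5 with the smallest p. Other differences named above were not in this check. Many values in the check could not change, so the tally overstates how stable the signs are. Leaving out an array of a group outside a comparison keeps the difference as it was. Some settings, such as the methods' test and no filter, reuse the same levels and differences. With normexp background correction, limma called 87 of 225 tested miRNAs at 4wd, among them 14 of 35 of the domain, and 0 at 2dr. The other call counts for all tested miRNAs at 4wd, 2dr and 2wr were 1, 0 and 0 with no scaling, 1, 2 and 1 with the authors' processed values, and at 2dr 2 with the lower floor and 0 with no filter and with the methods' test. At 2dr this count was 1 in the analysis reported. Domain miRNAs higher at 4wd at an unadjusted p under 0.05 (2 reported) numbered 23 with normexp (65.7%, beside 58.2% of all tested). With a floor 4 times higher they numbered 5 (15.6%, beside 8.81%). With the 75th percentile over all miRNAs or quantile normalization they numbered 1, beside 3.6% and 3.64%. With no scaling, the authors' values or the methods' test they numbered 0, beside 0.0%, 2.22% and 1.35%. Those lower at 2dr than in control (4 reported) numbered 2 with spot means or no scaling, beside 5.36% and 4.04% of all tested. They numbered 1 with quantile normalization or the methods' test, beside 2.73% and 1.8%. With normexp, the percentile over all miRNAs or the authors' values they numbered 0, beside 0.0%, 1.35% and 2.22%. Those lower at 2dr than at 4wd (13 reported) numbered 26 with normexp (74.3%, beside 49.8% of all tested). With the methods' test they numbered 8 (23.5%, beside 6.76%) and with quantile normalization 4 (11.8%, beside 5.91%). With the percentile over all miRNAs they numbered 1 (2.94%, beside 2.7%). With no scaling or the authors' values they numbered 0, beside 0.0% and 1.78%. Those lower at 2wr than at 4wd (5 reported) numbered 3 with normexp (8.57%, beside 5.78% of all tested). With the methods' test they numbered 1 (2.94%, beside 0.901%). With the percentile over all miRNAs, quantile normalization, no scaling or the authors' values they numbered 0, beside 0.901%, 1.36%, 0.0% and 0.0%. The cause was not tested.

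Signs turned with normexp for miR-136 (0.55) and miR-376c (1.16) at 4wd, for miR-431 (0.21) and miR-541 (0.087) at 2dr and for miR-376c (0.24) at 2wr. With no scaling they turned for miR-433 (-0.35) and miR-485 (-0.36) at 4wd, for miR-154 (-0.39) and miR-369-5p (-0.34) at 2dr, and for miR-154 (-0.25) and miR-369-5p (-0.31) at 2wr, and with slide as a block for miR-154 at 2dr (-0.081). At 4wd normexp brought miR-485 (1.20) past the threshold as higher, and also miR-376c with its turned sign (1.16), each with an adjusted p = 0.0296 from limma. The share of signal at 2wr was 3.68% without miR-494.

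The replicate block changed no call. In that fit 13 domain miRNAs were again lower at 2dr than at 4wd at an unadjusted p under 0.05 (38.2%, beside 19.4%). With 1 array left out at a time, calls ranged from 0 to 1 at 4wd, where the 1 came without replicate 4 of 2dr, and from 0 to 4 at 2dr, with 0 without control replicate 2, 3 or 4 or replicate 1 of 2dr and 4 without replicate 4 of 2dr. None was of the domain, where each count stayed at 0. Domain miRNAs at an unadjusted p under 0.05 ranged from 0 to 4 higher at 4wd, from 1 to 8 lower at 2dr than in control, from 9 to 16 lower at 2dr than at 4wd and from 0 to 8 lower at 2wr than at 4wd. The median of the domain minus that of all tested ranged from 0.02 to 0.14 for 4wd, -0.30 to -0.11 for 2dr and -0.35 to 0.14 for 2wr against control, from -0.32 to -0.15 for 2dr and -0.51 to -0.074 for 2wr against 4wd, and from -0.049 to 0.36 for 2wr against 2dr. The share of signal ranged from 4.60% to 6.49% in control, 4.48% to 5.03% at 4wd, 3.57% to 4.33% at 2dr and 3.79% to 4.33% at 2wr. Signs turned for 6 differences, which ranged from -0.69 to 0.0010 for miR-136 at 4wd (highest without replicate 2 of 4wd), from -0.10 to 0.092 for miR-154 and -0.18 to 0.22 for miR-369-5p at 2dr, and at 2wr from -0.25 to 0.60 for miR-154, -0.13 to 0.26 for miR-369-5p and -1.66 to 0.10 for miR-494 (highest without control replicate 3).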
